A study of Homo sapiens with 4 samples.

Results

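The genes that follow encode the beta and gamma subunits of heterotrimeric G proteins (GNB and GNG), the regulators of G protein signalling (RGS), the G protein-coupled receptor kinases (GRK) and the arrestin ARRB1. They were chosen by symbol, as genes named RGS, GRK, GNB or GNG followed by a digit, or named ARRB1 or ARRB2, on probe sets to which the array's annotation gives exactly 1 symbol. This gave 47 of 19775 genes, carried by 125 probe sets. They comprise 6 GNB genes (GNB1L, a relative that is not a standard beta subunit, included), 10 GNG genes, 22 RGS genes (with RGS7BP and RGS9BP, which encode anchoring partners of RGS proteins), 8 GRK genes (with the antisense RNA gene GRK3-AS1) and ARRB1. ARRB2 is not analysed here.

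All 4 samples were HEK293, a human embryonic kidney line transformed with adenovirus DNA, grown in DMEM with 10% FBS. The LPA group had serum-free medium overnight and then lysophosphatidic acid (LPA), a serum phospholipid, at 1 µM for 2 h. The untreated group, whose titles carry the unexplained letters Vc, has its treatment given as none; the labels do not say whether it also had the serum-free medium or what it received in place of LPA. Each group had 2 arrays, numbered 1 and 2, and nothing states that they came from separate cultures, so every p-value refers to the spread of these arrays alone, and that spread may be technical.

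LPA acts on receptors that exchange the nucleotide on a G protein alpha subunit, which frees a beta-gamma dimer. The alpha subunit and the dimer each act on effectors, the dimer on certain phospholipases, phosphoinositide 3-kinases, adenylyl cyclases and potassium channels. RGS proteins speed GTP hydrolysis by alpha subunits and so shorten the signal. GRKs phosphorylate the active receptor, and the beta-arrestins that then bind uncouple it from the G protein and lead it into clathrin-coated pits. Several RGS genes, RGS2 and RGS16 among them, are known as genes whose transcription responds to signalling.

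The deposited values are MAS5 intensities, 1 per probe set and array. The trimmed mean was 500.1 on every array, array medians were 70.3 to 76.1, and LPA replicate 2 had the lowest maximum (62508 against 93776 to 104012) and the highest 3′-to-5′ ratio of ACTB (18.8 against 12.6 to 13.6). The part of that array's difference in the results was not tested; the value without it is given for GNG5 and for the 8 fully described members whose difference then turned sign. Of 8 genes known in HEK293 cells, 7 lay above the filter described next, among them the neurofilament NEFM and the keratin KRT18. Of 18 measured markers of other cell types, 14 lay below it; the collagens COL1A1 and COL3A1, PECAM1 and HBB lay above, and the summed intensity of the 18 was 1861 and 2297 untreated and 1753 and 1873 with LPA.

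The probe set with the highest mean log2 intensity stood for each gene, and the gene was tested where that mean reached the 40th percentile of all genes, a signal of 70.5. The filter is a rank of brightness and not a detection call. Of the 47 members 30 lay above it, 29 of them on all 4 arrays, and 17 lay below. Intensities of different probe sets depend on the probes, so no member's level was set against another's.

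All 6 GNB genes lay above the filter: GNB1 to GNB4, which encode the closely related beta subunits, GNB5, the divergent beta subunit that partners the RGS proteins of the R7 subfamily, and GNB1L. Of the GNG genes, GNG2, GNG4, GNG5, GNG7, GNG10, GNG11 and GNG12 lay above, and GNG3, GNG8 and GNG13 below. Of the GRKs, GRK2 to GRK6 lay above, and the retinal kinases GRK1 and GRK7 below, as did GRK3-AS1. ARRB1, beta-arrestin 1, lay above.

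The RGS genes divided by subfamily only in part. A gene's side of the filter rests on its brightest probe set, and of 10 for RGS12 only 1 lay above. In the R4 subfamily of small RGS proteins 5 of 9 lay above the filter (RGS2, RGS3, RGS5, RGS8 and RGS16). RGS8 passed only through the mean of its LPA arrays, with a signal at the mean log2 of 49.3 untreated and 107 with LPA. Its untreated arrays read 91.4 and 26.3, on either side of the filter signal. RGS1, RGS4, RGS13 and RGS18 lay below. All 3 genes of the RZ subfamily (RGS17, RGS19 and RGS20) and all 3 of the R12 subfamily (RGS10, RGS12 and RGS14) lay above. All 4 of the R7 subfamily, RGS6, RGS7, RGS9 and RGS11, lay below, and so did RGS7BP, RGS9BP and RGS22. GNB5 thus read above the filter, at 540.3 and 604 in untreated cells, without a partner of the R7 subfamily above it. RGS4 and RGS11 came closest, each over 70.5 on 2 of 4 arrays: RGS4 read 55.8 and 71.0 untreated and 88.2 and 46.5 after LPA.

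**Figure D1:**
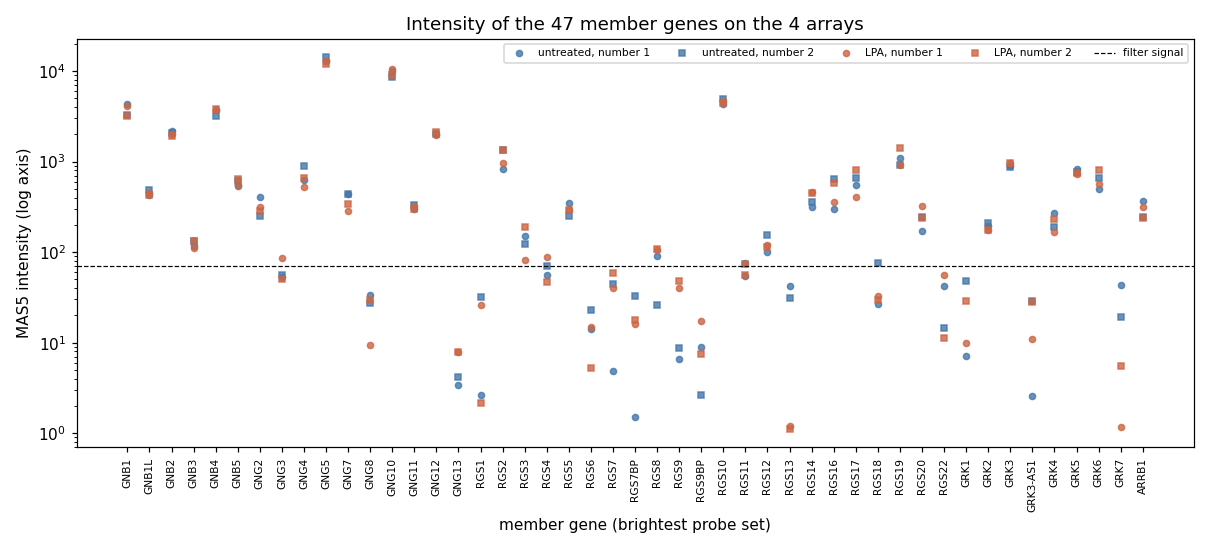
MAS5 intensity (log axis) of the brightest probe set of each of the 47 members, with 1 point per array, blue for untreated and orange for LPA, circles for replicate number 1 and squares for number 2; the dashed line is the filter signal of 70.5. The 4 points of most members above the line lie closer together than those of most members below it, with exceptions on both sides (RGS3 and RGS16 spread widely above, RGS11 and GNG3 little below), and RGS8 is the member above the filter whose arrays fall on both sides.

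Position along the genome separates some of these neighbours. In the RefSeq gene order RGS18, RGS1, RGS13 and RGS2 lie within 5 protein-coding genes of each other, and of these RGS2 alone lay above the filter. RGS8 and RGS16 are adjacent and both lay above it, RGS8 only through the mean of its LPA arrays. RGS4 and RGS5 are adjacent with RGS5 alone above. Each of GRK4, GRK5 and GRK6 lies beside or within 5 genes of an R12 subfamily gene (RGS12, RGS10 and RGS14, in that order), and all 6 lay above the filter.

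The bases upstream of RGS2 and RGS16 are shown because these were the RGS genes whose difference between replicate numbers ran the same way in both groups and was larger than both LPA differences (values below). They are the 250 bases before the RefSeq start of each gene in GRCh38.p14, for RGS2 chr1:192808789-192809038 on the plus strand and for RGS16 chr1:182604390-182604639 on the minus strand. Capitals mark matches on either strand to TGACG, the core of the cAMP response element, and to CCAAT.
RGS2: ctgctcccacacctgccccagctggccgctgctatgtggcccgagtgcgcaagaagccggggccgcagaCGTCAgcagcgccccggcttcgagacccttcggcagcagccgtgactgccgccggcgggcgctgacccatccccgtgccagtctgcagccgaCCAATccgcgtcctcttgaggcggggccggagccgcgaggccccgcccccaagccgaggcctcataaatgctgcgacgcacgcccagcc
RGS16: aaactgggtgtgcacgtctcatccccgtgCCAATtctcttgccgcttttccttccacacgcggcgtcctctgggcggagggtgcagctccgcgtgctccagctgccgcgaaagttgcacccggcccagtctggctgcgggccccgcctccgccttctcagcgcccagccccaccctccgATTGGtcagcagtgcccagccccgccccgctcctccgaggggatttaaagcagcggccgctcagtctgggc

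RGS2 had a match to TGACG in this window and RGS16 had none, and CCAAT matched at 1 place in RGS2 and at 2 in RGS16. Over 27305 promoters of the same length, 21.7% held TGACG and 33.0% CCAAT. Neither window held the full element TGACGTCA (1.77% of all promoters; TGACG is part of it), the AP-1 site TGANTCA (6.60%), TATAAA (11.1%) or the CArG box that binds SRF (1.14%), whose letters vary. Of the 26 members above the filter with a RefSeq promoter, 5 held TGACG (GNB1, GNG4, GNG7, GRK6 and RGS2), GNG7 alone the full element, and GNG2, GNG5 and RGS8 the AP-1 site. The GC box GGGCGG, not marked by capitals, matched at 1 place in RGS2 and at 2 in RGS16. It was in 17 of the 26 members, and in 21 of all 40 members with a RefSeq promoter, against 42.3% of all promoters. CCAAT was in 4 of the 26 and 7 of the 40, against 33.0% of all promoters. TATAAA was in 0 of the 26 and 2 of the 40, against 11.1%. The 26 were selected by the brightness filter and the 27305 promoters were not, so these sets are unlike. These shares were not tested. All of these are matches of letters and not known sites.

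LPA and untreated arrays were compared to see which of these transcripts differ after 2 h. Of the members, 0 of 30 passed limma's threshold of 0.05 on p adjusted over 11865 genes, and 0 had an unadjusted p under 0.05; over all genes 0% passed, and 1.74% had an unadjusted p under 0.05. The adjusted p was 0.9999 for every member tested. The difference was under its standard error (SE, from limma) for 25 of the 30, and the median absolute difference was 0.105 on the log2 scale against 0.1465 over all genes. That SE is drawn toward the spread of all genes of like intensity, so it is not a member's own spread. GNB2 had standard deviations of 0.049 untreated and 0.054 with LPA and an SE of 0.16. RGS16 had 0.76 and 0.50 and an SE of 0.39. RGS8 was the 1 member with a difference over 1.5-fold, where 5.46% of all genes had one. It passed the filter only through the mean of its LPA arrays, with a signal at the mean log2 of 49.3 untreated and 107 with LPA. Its difference, its test and its place among the higher members are therefore a description. The other 29 had both group means above the filter.

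The 2 LPA values both exceeded the untreated ones for 4 members (GNB4, GRK3, RGS8 and RGS14), which is 13.3% against 14.4% of all genes. Both lay below for 5 (GNB2, GNG5, GNG7, GRK2 and GRK5), which is 16.7% against 12.5% of all genes. The other 21 overlapped. With each array centred on its median the counts were 4 higher and 3 lower, 13.3% and 10% of members against 18% and 9.36% of all genes. Within replicate numbers, 16 of 30 differed in the same direction in number 1 and number 2, 8 upward and 8 downward, which is 53.3% against 53.4% of all genes. The median difference over the 30 was -0.027 in number 1 and 0.029 in number 2, against -0.0014 and 0.025 over all genes. These shares lie near those of all genes, with 2 arrays in each group.

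**Figure D2:**
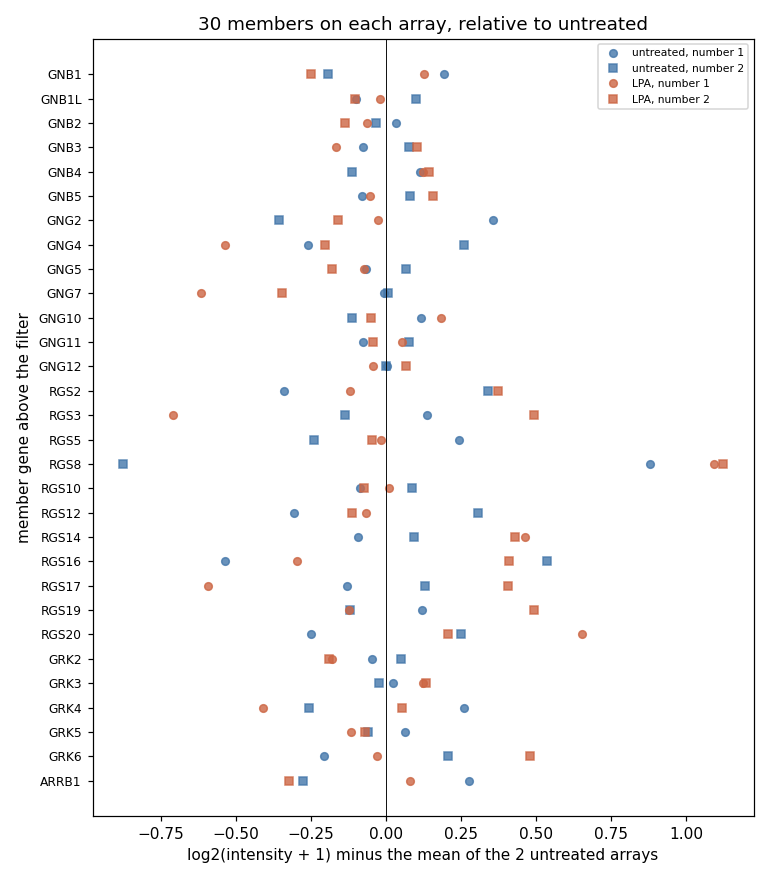
Each of the 30 members above the filter, as log2(intensity + 1) on each array minus the mean of the 2 untreated arrays; blue points are untreated and orange LPA, circles replicate number 1 and squares number 2. Orange and blue points interleave for 21 members, and RGS8 spans the widest range.

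Among the beta subunits, GNB1 read 4289.6 and 3277 on untreated arrays 1 and 2 and 4094 and 3153 on LPA arrays 1 and 2, a log2 difference of -0.06 ± 0.20 (SE). Both number 2 arrays were lower than both number 1 arrays. GNB2 read 2158 and 2057 against 2017 and 1914, with both LPA values lower (-0.10 ± 0.16). GNB4 read 3689 and 3151 against 3717 and 3762, with both LPA values higher (0.13 ± 0.16); the gap to untreated array 1 was 0.011 and that to untreated array 2 was 0.256. GNB5 read 540.3 and 604 against 551 and 636 (0.05 ± 0.23), the groups interleaved. Without LPA replicate 2, the array with the low maximum intensity, the difference was 0.13 for GNB1 and -0.053 for GNB5, both of the opposite sign. GNB3 read 118 and 131 against 110.4 and 133, and GNB1L 425 and 488 against 449 and 424, and both overlapped.

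Gamma subunits carry the lipid that holds the dimer at the membrane. GNG5 read 12881 and 14134 untreated against 12820 and 11904 with LPA, both lower, by 0.007 in number 1 and 0.25 in number 2 (log2 difference -0.13 ± 0.15). Without LPA replicate 2 the GNG5 difference was -0.074, and with quantile normalization -0.052. GNG10 read 10120.2 and 8623 against 10614 and 9025 (0.07 ± 0.16), and here the arrays paired by replicate number rather than by group. GNG12 read 2022 and 2019 against 1958 and 2115 (0.01 ± 0.16), and GNG11 296 and 329 against 324 and 303 (0.0044 ± 0.28); in GNG12 the LPA values lay on either side of the untreated ones and in GNG11 between them. The GNG12 difference was -0.045 without LPA replicate 2. Both LPA values were lower at the other GNG12 probe sets above the filter. One read 994 and 856 against 819 and 828 (-0.16), and another 445 and 413 against 266 and 314 (-0.57).

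GNG7 read 433 and 437 untreated against 284 and 342 with LPA, the largest negative difference among the tested members (-0.48 ± 0.26, limma adjusted p = 0.9999). It was lower after LPA by 0.61 in number 1 and 0.35 in number 2. A second GNG7 probe set above the filter did not follow: it read 179 and 248 against 145 and 349 (0.091). GNG4 read 628 and 903 against 519 and 654 (-0.37 ± 0.26), lower after LPA in both numbers, but with the groups overlapping because number 2 read higher than number 1 in each. Its 2 further probe sets above the filter gave 0.20 and -0.80. GNG2 read 410.2 and 249.7 against 314 and 286, with both LPA values between the untreated ones.

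RGS2, a regulator that acts preferentially on the Gq class, read 828 and 1327 without LPA and 964 and 1358 with it. The log2 difference was 0.13 ± 0.27, with 0.22 in number 1 and 0.034 in number 2, and the groups overlapped. RGS16, which acts on Gi and Gq, read 301 and 635 against 356 and 582 (0.06 ± 0.39), higher after LPA in number 1 and lower in number 2. In both genes the distance between the arrays of a group exceeded that between the groups. Without LPA replicate 2 the difference was -0.12 for RGS2 and -0.30 for RGS16, both turned in sign.

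RGS14, a scaffold that also binds RAF kinases, read 315 and 359 untreated against 463 and 453 with LPA. Both LPA values were higher, by 0.56 in number 1 and 0.34 in number 2 (0.45 ± 0.26, limma adjusted p = 0.9999). Its second probe set above the filter had the opposite direction with no overlap, at 186 and 216 against 183 and 144 (-0.30). RGS8 read 91.4 and 26.3 against 106 and 109 (1.11 ± 0.62, adjusted p = 0.9999). The untreated array 2 value lay below the filter signal: without that array the difference was 0.23, without untreated array 1 it was 1.99, and with a pseudocount of 64 in place of 1 it was 0.53.

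RGS19, a regulator of the Gi class also named GAIP, read 1095 and 928 against 925 and 1419.5 (0.19 ± 0.24), with opposite directions in the 2 numbers (-0.24 and 0.61) and a difference of -0.12 without LPA replicate 2. Its relatives RGS17 (555 and 664 against 402 and 805) and RGS20 (172 and 244 against 322 and 236) also went opposite ways, as did RGS3 (149 and 123 against 82.6 and 191). RGS10, a short protein of the R12 subfamily, read 4351 and 4912 against 4653 and 4392, and RGS12 100.3 and 154 against 119 and 115; in neither did the groups separate. RGS5 read 353 and 252 against 294 and 289. Of the 11 RGS genes tested, 3 differed in the same direction in both numbers (RGS2, RGS8 and RGS14), as did 4 of 6 GNB genes, 4 of 7 GNG genes, 4 of 5 GRKs and ARRB1, beside 53.4% of all genes; the families were not tested against each other.

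Among the kinases, GRK2, the kinase that beta-gamma recruits to receptors, read 194 and 208 untreated against 177 and 176 with LPA, both lower (-0.19 ± 0.33). Its second probe set above the filter gave 0.38. GRK3, its closest relative, read 904 and 876 against 968 and 976, both higher by a small margin, with 0.098 in number 1 and 0.16 in number 2. A second GRK3 probe set above the filter had the opposite direction with no overlap, at 347 and 442 against 302 and 313 (-0.35), and another gave 0.058. GRK5 read 825 and 758 against 728 and 754, both lower (-0.09 ± 0.20). The GRK5 difference was -0.033 without untreated array 1, -0.16 without untreated array 2 and -0.46 as the mean of its 4 probe sets, 3 of which lay below the filter. GRK6 read 498 and 664 against 563 and 802 (0.22 ± 0.27), overlapping, and GRK4 268 and 187 against 168 and 232. A GRK6 probe set of nearly the same brightness had both LPA values lower, at 678 and 687 against 502 and 602 (-0.31). The other GRK6 probe sets above the filter gave -0.15 and -0.95. ARRB1 read 362 and 247 against 316 and 239 (-0.12 ± 0.33), and its number 2 arrays lay below its number 1 arrays in both groups. Without LPA replicate 2 the difference was -0.030 for GRK6 and 0.078 for ARRB1, both turned in sign.

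**Figure D3:**
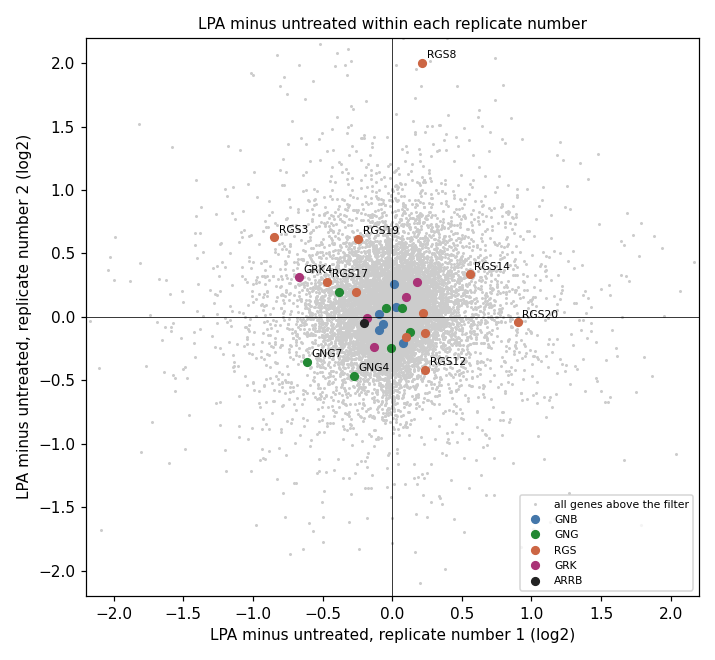
LPA minus untreated on the log2 scale within replicate number 1 (horizontal) and within number 2 (vertical), for the 30 members (coloured by family) over all tested genes (grey; 60 genes lie outside the axes). Members fall in all 4 quadrants, 16 of 30 in the 2 where both numbers share a direction; RGS8 is the farthest from the centre and RGS3, RGS17 and GRK4 lie in the quadrants of opposite direction.

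The arrays of a group differed as follows. RGS16 was higher on number 2 by 1.07 in untreated cells and by 0.71 after LPA, and a second RGS16 probe set gave 1.39 and 0.69. RGS2 was higher on number 2 by 0.68 and 0.49, GRK6 by 0.41 and 0.51 and GNG4 by 0.52 and 0.33. ARRB1 was lower on number 2 by 0.55 in untreated cells and 0.40 after LPA, GNB1 by 0.39 and 0.38, and GNG10 by 0.23 and 0.23. What the number marks is not stated in the labels. In all, 14 of the 30 members differed between numbers in the same direction in both groups, which is 46.7% against 64.8% of all genes. The median absolute difference between 2 arrays was 0.24 (number 2 against 1, untreated) and 0.17 (LPA) for the members, beside 0.19 and 0.20 for LPA against untreated within numbers 1 and 2. Differences between arrays of a group were of about the size of those between groups.

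**Figure D4:**
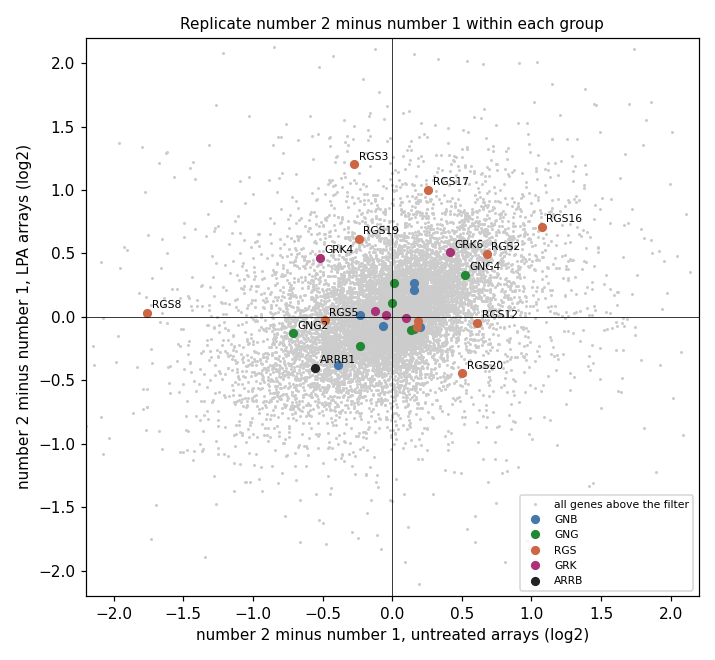
Replicate number 2 minus number 1 on the log2 scale in untreated cells (horizontal) and after LPA (vertical), for the 30 members (coloured by family) over all tested genes (grey; 65 genes lie outside the axes). RGS16, RGS2, GRK6 and GNG4 lie at the upper right and ARRB1 and GNB1 at the lower left, and RGS3, RGS8 and RGS20 lie off that diagonal.

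Several probe sets of a gene are not replicates, but they show how far a member's value depends on the probes. Of the 30 members 13 had a single probe set above the filter and 17 had 2 or more. The sign of the LPA difference was the same on all of them for 3 of the 17 (GNB1L, GNB4 and GRK4), which is 17.6% against 42.0% of genes with 2 or more. Among those with exactly 2, the share was 33.3% of 9 members and 54.5% of all such genes. For ARRB1, 6 probe sets above the filter ran from -0.38 to 0.97: one read 120 and 84.5 against 197 and 199, with both LPA values higher, and another 290.4 and 322 against 253 and 218, with both lower. GRK6 ran from -0.95 to 0.22 over 4 probe sets, and GNG12 from -0.57 to 0.01 over 3. GRK4 spread least, with -0.18 and -0.13.

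**Figure D5:**
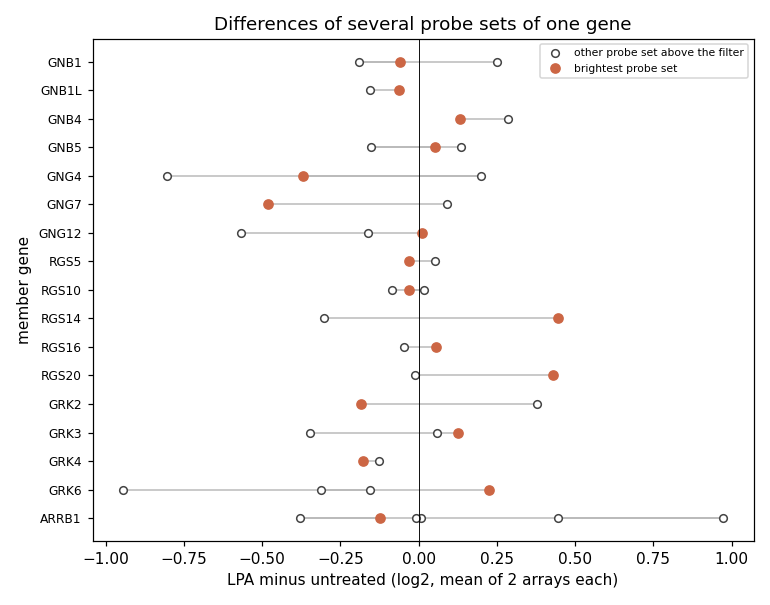
LPA minus untreated on the log2 scale, mean of 2 arrays each, for every probe set above the filter of the 17 members with 2 or more; filled points are the brightest probe set, open points the others. For 14 of the 17 the points lie on both sides of 0, most widely for ARRB1 and GRK6.

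Members below the filter were left out of the comparison above because their signals were dim. Among them, RGS13 read 42.2 and 31.3 untreated against 1.19 and 1.12 with LPA, GNG13 3.43 and 4.17 against 7.90 and 7.83, and GRK7 43.7 and 19.2 against 1.18 and 5.54. RGS9 read 6.66 and 8.84 untreated and was higher after LPA, by 2.42 in number 1 and 2.31 in number 2 (log2). None of these members reached 70.5 on any array. RGS1 read 2.66 and 32.0 against 25.7 and 2.15, which shows how far such values vary within a group. With no filter, 12.8% of the 47 members had both LPA values higher and 14.9% both lower, against 14.2% and 15.5% of all genes.

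Other genes of the same pathway were taken from 5 lists, each read against the 14.4% of all genes with both LPA values higher and the 12.5% with both lower; 0 of their genes passed limma's threshold over all genes. The list of receptor-independent regulators and chaperones, which also holds the transducin gamma genes GNGT1 and GNGT2, had 5 of 11 measured genes above the filter. Both LPA values were higher for 2 of them (PDCL and GNGT1) and lower for 0, and the median difference was 0.12. PDCL, which helps assemble the beta-gamma dimer, read 560 and 460.0 against 795 and 653 (0.51 ± 0.24), and its second probe set gave 0.14. The transducin gamma gene GNGT1 read 146 and 140.0 against 180.2 and 199 (0.40 ± 0.34). GPSM1 differed by 0.12 ± 0.18.

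Enzymes that prenylate and process gamma subunits had all 7 genes above the filter, 0 without overlap and a median of 0.015. PGGT1B, the beta subunit of the enzyme that attaches the geranylgeranyl lipid, differed by 0.27 ± 0.23, with 0.38 and 0.39 at its other probe sets, FNTA by -0.14 ± 0.16 and ZMPSTE24 by -0.14 ± 0.20. The list named beta-gamma effectors had 12 of 22 genes above the filter, with a median of 0.018. Both LPA values were higher for 3 of them (ADCY7, PRKD1 and ARHGEF12, which is also in the next list) and lower for 1 (PLCB1). Of these the adenylyl cyclase ADCY7 read 96.1 and 101 against 146 and 138 (0.52 ± 0.38), and the phospholipase PLCB1 1070.4 and 1106 against 1017 and 830.2 (-0.24 ± 0.20).

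The other genes with an RGS homology domain had 8 of 9 above the filter, 5 with both LPA values higher and 1 lower. Their median difference was 0.46, against 0.0092 over all genes. Before adjustment 2 of the 8 (AKAP10 and ARHGEF12) fell below 0.05 in limma, where 1.74% of all genes did. Neither passed after adjustment (limma adjusted p = 0.9999 for both). AKAP10, an anchor of protein kinase A, read 480.1 and 342 against 689 and 585 (0.65 ± 0.27), but 2 more of its probe sets above the filter gave -0.35 and 1.05. ARHGEF12, a RhoGEF that G12 and G13 activate, read 2038 and 1743 against 2871 and 2285 (0.44 ± 0.18), while its other probe sets gave -1.11 and -0.76; it is also in the effector list. SNX13 read 533 and 698 against 776 and 964 (0.50 ± 0.24), with -0.15 to 0.23 at its other probe sets.

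Genes of arrestin-dependent endocytosis had 20 of 22 above the filter, 4 with both LPA values higher and 1 lower, with a median of -0.0016. AP2A1, a subunit of the clathrin adaptor, read 85.6 and 81.3 against 136 and 159 (0.81 ± 0.39), and 0.70 at its other probe set above the filter. The clathrin light chain CLTA read 16839 and 17366 against 15295 and 12282 (-0.32 ± 0.16), lower by 0.14 in number 1 and 0.50 in number 2, and STAM differed by 0.24 ± 0.16.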

How the data were processed

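The authors deposited 1 intensity value per probe set and array on a linear scale, with MAS5 named in the submitters' processing notes, its version and scaling target not given in the sources used here. Detection calls were not used. The equal 2% trimmed means show scaling array by array before deposit, and no further normalization was applied. Of 54675 probe sets 41097 carry 1 symbol, 1801 several and 11777 none. Values were taken as log2(intensity + 1), where the added 1 shrinks differences of dim genes. Pseudocounts of 16 and 64 shrank them more, RGS8 from 1.11 to 0.87 and 0.53. Values of dim members also varied widely within a group. Of 19775 genes 11865 passed the filter at the 40th percentile. Groups were compared two-sided with limma 3.58.1 in R 4.3.3 (lmFit, eBayes with intensity trend, Benjamini-Hochberg over all genes tested); the median SE was 0.244, and 2 arrays per group limit the precision. The procedure was tested on simulated data. An exact two-sided permutation test of 2 against 2 arrays cannot go below p = 0.333 and was not run.

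The members, lists and tests were chosen with earlier results of these data known. Full statistics are given for members with no overlap and an absolute difference of at least 0.3, and for GNB1, GNB2, GNB4, GNB5, GNG5, GNG10, GNG11, GNG12, RGS2, RGS16, RGS19, GRK2, GRK5, GRK6 and ARRB1 whatever their values (RGS4 and ARRB2 were also on that list), and for up to 3 genes of each pathway list by smallest p; other members and probe sets were picked after their values were seen. Alternatives were other normalizations, pseudocounts, filters and probe set rules, the replicate number as a block, and leaving out each array. Promoters are from RefSeq (GRCh38.p14), with 40 of 47 members matched.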

Additional observations from a re-analysis of the deposited data

How the results depend on the processing

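The count of members past limma's threshold was 0 under all 15 alternatives, with the smallest adjusted p of a member between 0.513 and 0.99999. With the replicate number as a block, 32 of all genes passed and 4 passed with quantile normalization added, with 0 members among them; the smallest unadjusted member p was then 0.0468 for GNG4 and 0.0266 for GNG7. Differences between arrays 1 and 2 correlated between groups at r = 0.330 across genes, and 2 pairs do not settle whether the numbers pair the samples. With no filter, 3 of 47 members had an unadjusted limma p under 0.05 (6.38% against 3.07% of all 19775 genes); these were GRK7, RGS9 and RGS13, all below the filter signal on average, and the smallest was 0.00282 for RGS13 in limma. With the block, 1 member had one (GNG4) and 2 with quantile normalization added (GNG4 and GNG7), 3.33% and 6.67% against 8.55% and 8.82% of all genes.

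Leaving out each array in turn gave 0 to 3 genes past the threshold, 6 to 12 members higher and 8 to 12 lower without overlap, where fewer arrays make overlap rarer. That is 20% to 40% higher and 26.7% to 40% lower, against 27.9% to 35.3% and 28.4% to 33.1% of all genes; either way it was 56.3% to 68.4% of all genes. The lists then had 2 to 5 (regulators and chaperones), 3 to 4 (prenylation), 7 to 9 (effectors) and 10 to 16 genes (endocytosis) without overlap. Median centring moved the members that were lower from 5 to 3, against 4 higher, and the prenylation list to 1. The filter at the 60th percentile, which tests fewer genes, gave 3 lower members, 1 regulator and 3 endocytosis genes. Of the 18 members then tested 16.7% were higher and 16.7% lower, against 13.2% and 12.5% of all genes. The mean of all probe sets gave 2 higher and 6 lower members, 4 regulators, 2 prenylation genes, 2 effectors and 3 RGS homology genes. Of the 28 members then tested 7.14% were higher and 21.4% lower, against 15.3% and 13.4% of all genes. No filter gave 4 regulators and 7 effectors, with 12.8% of 47 members higher and 14.9% lower, against 14.2% and 15.5% of all genes. Either way it was 25.7% of all genes at the 60th percentile, 28.7% with the mean and 29.7% with no filter. For the other moves the cause was not tested.

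Of 264 values of single members under the alternatives, 29 turned sign. GNG11 became -0.060 with quantile normalization, with or without the block. Cyclic loess gave -0.00048 for GNB5, -0.055 for GNG11 and -0.0018 for GNG12. The mean of all probe sets gave 0.12 for ARRB1, -0.027 for GNB4, -0.24 for GNG12, 0.12 for GRK2, -0.30 for GRK6, -0.19 for RGS14 and -0.080 for RGS16. Leaving out arrays gave ranges that crossed 0 for ARRB1 (-0.40 to 0.15), GNB1 (-0.26 to 0.13), GNB5 (-0.053 to 0.16), GNG10 (-0.050 to 0.18), GNG11 (-0.072 to 0.081), GNG12 (-0.045 to 0.066), GRK6 (-0.030 to 0.48), RGS2 (-0.21 to 0.47), RGS16 (-0.48 to 0.59) and RGS19 (-0.12 to 0.49). Other probe sets turned ARRB1 (0.0079, 0.97 and 0.44), GNB1 (0.25), GNB5 (-0.15), GNG7 (0.091), GNG12 (-0.16 and -0.57), GRK2 (0.38), GRK6 (-0.31, -0.15 and -0.95), RGS14 (-0.30) and RGS16 (-0.047).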

Other observations

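Outside the comparison, 3 probe sets carry a member's symbol together with another gene's. The brighter of the pair shared by GNB1L and RTL10 read 625 and 266 untreated against 616 and 477 with LPA, and the other 153 and 132 against 119 and 134. The probe set shared by RGS8 and SDHAP3 read 222 and 124 against 192 and 194, all above the filter signal, and there too untreated replicate 2 was the lowest array, as at the RGS8 probe set.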
